A study of Arabidopsis thaliana with 28 samples.

Results

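The genes described here are the protein, ribosomal RNA and transfer RNA genes and the open reading frames of the mitochondrial genome of Arabidopsis thaliana. They were chosen by their gene identifiers, which begin with ATMG, and number 146 of the 33602 annotated genes in the abundance tables. The RNA came from whole seedlings of 7 d grown on plates under 16 h of light and 8 h of dark. The wild type Col-0 and a pif7 mutant, whose allele is not named in the labels, were each kept at a constant 17 °C or taken through a daily cycle with 27 °C from ZT4 to ZT12 and 17 °C otherwise, ZT being hours after lights on. Harvests were at lights on (ZT0) and at ZT4, ZT5, ZT8, ZT12, then ZT16 and ZT20 in the evening and night, and each of the 28 combinations of genotype, regime and time has 1 library and no replicate. Every oscillating library is labelled 27 °C, whatever its time of day. Per the labels a directional library kit was used, and whether poly(A) selection or rRNA depletion came before it is not given in the sources used here.

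A plant mitochondrion keeps a small genome that encodes part of the respiratory chain: subunits of complex I (NADH dehydrogenase), cytochrome b of complex III, the catalytic core of complex IV (cytochrome c oxidase) and subunits of the ATP synthase. It also encodes factors that attach heme to c-type cytochromes, some ribosomal proteins, ribosomal RNAs, a set of transfer RNAs, an intron maturase and open reading frames with no assigned role. The nuclear genome supplies the other subunits, the RNA polymerases and the proteins that splice, edit and trim mitochondrial transcripts. Neighbouring mitochondrial genes are often transcribed together, several genes are split and joined by trans-splicing, and polyadenylation marks plant mitochondrial RNA for decay rather than for translation. Col-0 also carries a large insertion of mitochondrial DNA near the centromere of chromosome 2, so that many of these genes have a nuclear copy.

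The sequences of a gene with a full nuclear copy and of one for which none was found show what that means for the readings below. ATP9 encodes the membrane ring subunit of the ATP synthase, and its 225-base coding sequence in the RefSeq mitochondrial genome (TAIR10.1, 270961 to 271185, minus strand) is the same base for base as that of the copy gene AT2G07671 on chromosome 2 (chr2:3251856-3252080, minus strand). It is shown once, in lower case throughout because no base differs:
ATP9: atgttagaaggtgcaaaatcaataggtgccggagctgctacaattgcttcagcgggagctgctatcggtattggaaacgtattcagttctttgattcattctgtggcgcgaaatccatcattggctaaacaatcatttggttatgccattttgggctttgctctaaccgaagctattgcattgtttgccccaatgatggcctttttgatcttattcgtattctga
COX2 encodes a core subunit of complex IV, and its best match in the searched stretch of chromosome 2 covers only the start of the gene. The first 300 bases of that stretch are shown for the RefSeq mitochondrial gene (6264 to 6563, plus strand) and for the copy in AT2G07695 (chr2:3346951-3347250, plus strand), with the 11 differing bases in capitals:
COX2: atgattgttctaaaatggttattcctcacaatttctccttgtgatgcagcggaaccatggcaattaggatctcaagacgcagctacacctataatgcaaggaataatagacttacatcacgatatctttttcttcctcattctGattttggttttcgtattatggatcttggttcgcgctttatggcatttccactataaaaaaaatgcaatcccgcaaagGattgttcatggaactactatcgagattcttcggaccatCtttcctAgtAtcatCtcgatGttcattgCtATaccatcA
COX2 copy: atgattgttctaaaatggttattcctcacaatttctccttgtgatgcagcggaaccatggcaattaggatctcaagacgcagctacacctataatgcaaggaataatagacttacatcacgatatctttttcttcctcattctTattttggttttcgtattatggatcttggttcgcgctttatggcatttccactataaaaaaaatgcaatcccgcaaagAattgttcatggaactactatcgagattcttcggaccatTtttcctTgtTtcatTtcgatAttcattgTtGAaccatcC
For ATP9 a read within the coding sequence fits both places equally well. For COX2 the differing bases lie mostly at the end of the matching stretch. The rest of the gene lies outside this best match, and further matches were not read.

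Of the 146 genes, 63 reached a TPM of 1 or more in 2 or more libraries and were tested, and 5 were listed at 0 in every library. TPM is a relative transcript abundance per gene length, and it was rescaled between libraries before use. The 3 ribosomal RNA genes held 70.0% of the summed mean TPM of the mitochondrial genes. The 84 open reading frames of unassigned role held 9.16%, ribosomal proteins 6.09%, complex I 3.89%, transfer RNAs 3.84% and the ATP synthase 3.78%. The highest mean levels were those of RRN26 (227 TPM), RRN18 (104 TPM), RRN5 (39.7 TPM) and RPSL2, the gene of ribosomal protein S12 (20.4 TPM). ORF111D followed at 10.1 TPM, ATP9 at 9.50 TPM, CCB382 at 8.27 TPM, NAD3 at 6.28 TPM, TRNM.1 at 6.05 TPM and RPL16 at 5.10 TPM. For CCB382 and TRNM.1 the mean coverage (signal per base, 3.09 and 3.46) was below the mean TPM, whereas for ATP9 (14.2) it was above. The places of CCB382 and TRNM.1 in this ranking hold for TPM only. The lowest mean of a tested gene was 0.361 TPM.

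Mitochondrial RNA other than ribosomal RNA was higher in the oscillating regime at every time and in both genotypes. Summed over these 143 genes, the scaled TPM was lowest at 95.8, had a median of 120 and reached 139.7 in the 14 constant libraries. In the 14 oscillating libraries it was lowest at 158.1, had a median of 193 and reached 222.9. The regimes did not overlap. The ratio of oscillating to constant was above 1 in 14 of 14 pairs of the same genotype and time, with a median of 1.60, a lowest value of 1.34 (pif7, ZT8) and a highest value of 2.20 (pif7, ZT0). With TPM as deposited and unscaled it was also above 1 in 14 of 14 pairs, with a median of 1.63. The sum over the 83 genes too low to be tested showed the same order, with 3.21 to 8.37 in constant libraries (median 4.29) and 7.32 to 13.6 in oscillating ones (median 10.5).

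Ribosomal RNA as a sum was lower under oscillation in most pairs. RRN26, its most abundant gene, had a log2 difference of -0.74 over all times. RRN18 (0.09) and RRN5 (0.26) lay above 0 and did not pass. The summed level of RRN26, RRN18 and RRN5 was 326.6 to 499.6 scaled TPM in constant libraries and 222.3 to 520.1 in oscillating ones. The groups overlapped, and the ratio was above 1 in only 2 of 14 pairs, with a median of 0.764. Ribosomal RNA made up 74.8% to 81.4% of the mitochondrial TPM at constant temperature and 53.3% to 70.0% under oscillation, with no overlap. The whole mitochondrial sum had a median ratio of 0.953 and was above 1 in 4 of 14 pairs. Chloroplast-encoded genes, the other organelle's transcripts, summed to less in the oscillating library of 13 of 14 pairs, as their ratio was above 1 in 1 pair and had a median of 0.877. Since whole seedlings were used, more mitochondria-rich cells and more RNA per cell cannot be told apart.

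**Figure D1:**
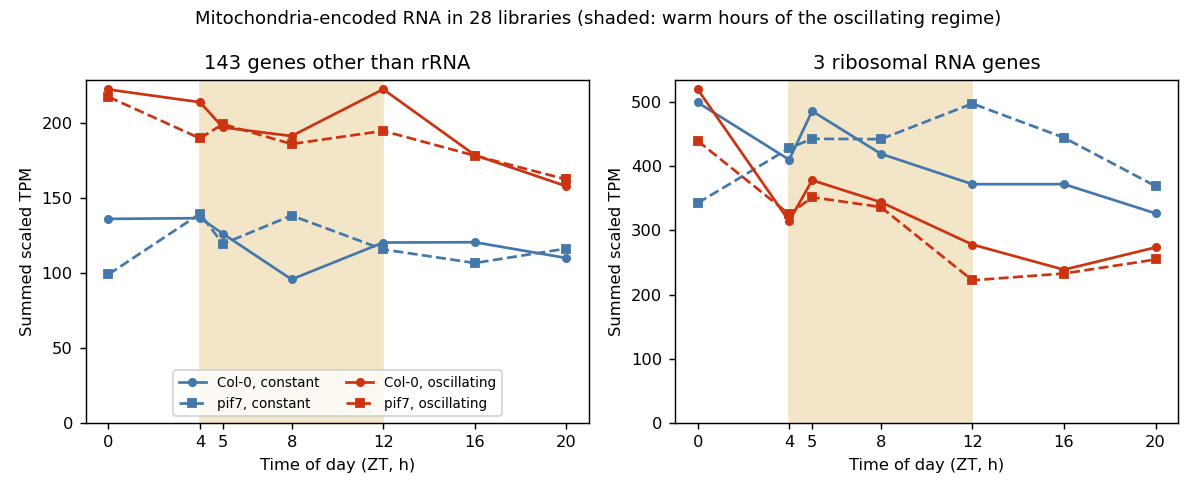
Summed scaled TPM (vertical axes) of the 143 mitochondria-encoded genes other than ribosomal RNA (left) and of the 3 ribosomal RNA genes (right) against time of day, 1 point per library, with blue for constant and red for oscillating temperature. On the left the red lines lie above 158 and the blue lines below 140 throughout; on the right the red lines lie below the blue ones at most times.

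Sequencing depth was 1.70 to 2.13 gigabases in constant and 1.32 to 2.82 in oscillating libraries, and the shallowest library, Col-0 at ZT0 under oscillation with 1.32 gigabases, had one of the highest sums outside ribosomal RNA (222.7 scaled TPM). The number of mitochondrial genes listed at 0 was 54 to 70 in constant and 35 to 56 in oscillating libraries. The library numbers in the titles run in blocks of genotype and regime, so regime and anything that followed this order cannot be told apart. The libraries held transcripts of green tissue (RBCS1A at 3484 to 6642 scaled TPM) and of roots (TIP2-3 at 5.69 to 56.0, EXPA7 at 2.09 to 8.45). Of 3 green markers 2 were lower under oscillation over all times, and of 3 root markers 0 passed in limma (1 had an unadjusted p under 0.05). The seed storage gene CRA1 was higher, at 0.476 to 9.75 against 0 to 0.640 (log2 difference 0.96), while the other two seed storage genes were at or near 0, and the part of these shifts and of depth in the mitochondrial values was not tested.

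Over all times and both genotypes, 37 mitochondrial genes were higher and 1 was lower in the oscillating regime among the 63 tested (limma, Benjamini-Hochberg adjusted p under 0.05 over 21031 genes). Of all genes tested, 6.25% were higher and 6.48% lower. The median log2 difference was 0.40 over the tested mitochondrial genes and 0.00 over all genes. The filter could favour genes that are high under oscillation, so the genes were also split by it. Of the 63, 47 reached the filter in the constant libraries alone, and of these 27 were higher and 1 lower, with a median of 0.41. The other 16 reached it only with oscillating libraries, and 10 of them were higher. When each library was instead scaled to its own mitochondrial genes, the split was 13 higher and 10 lower, and the median of all genes moved to -0.61, so these differences are relative to the rest of the cell's RNA. Under that scaling the sign turned for 23 of the 63 genes, 7 of them among the 37 higher ones (ATP1, RPSL2, RPL16, ATMG00090, NAD3, MATR and ORF111D). With unscaled TPM the sign turned for 1 gene, ORF199, which passed in neither fit.

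**Figure D2:**
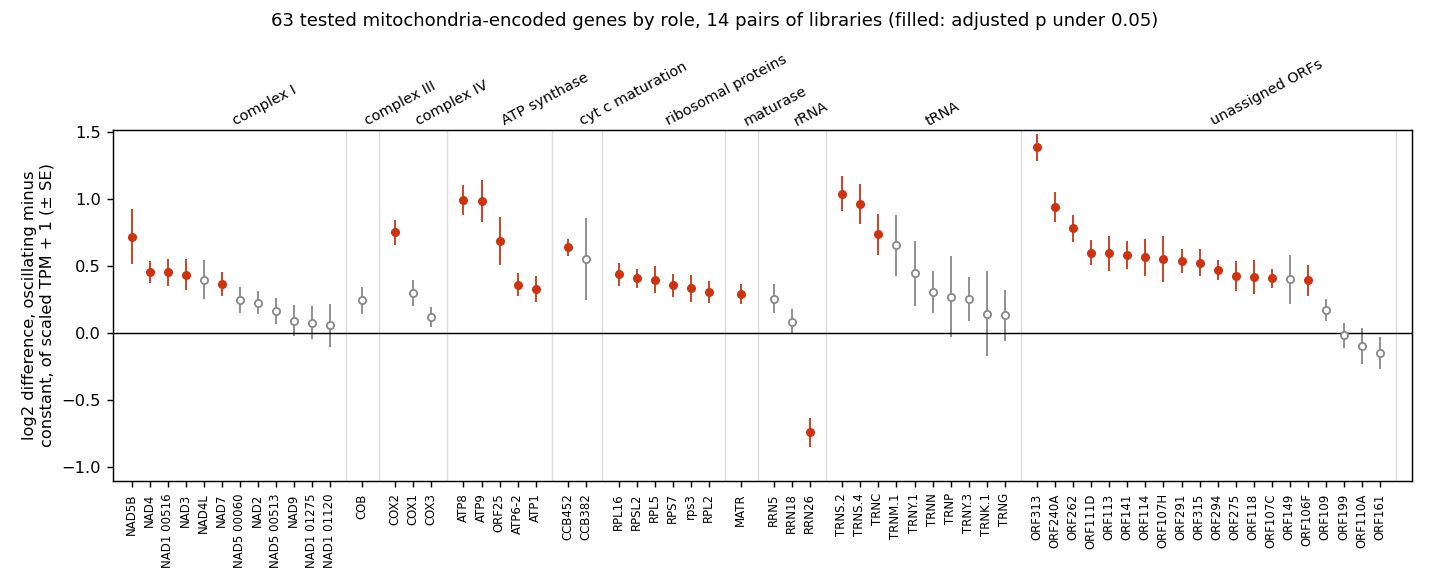
Log2 difference (oscillating minus constant, scaled TPM plus 1, with standard error) of the 63 tested genes grouped by role and ordered by size within each role, over 14 pairs of libraries. Filled points passed at an adjusted p under 0.05, and all but RRN26, at -0.74, lie above 0. The 5 ATP synthase and 6 ribosomal protein genes are all filled, though RPL2 and RPS7 reached the filter only with oscillating libraries. Under scaling to mitochondrial genes ATP1, RPSL2 and ATMG00090 passed below 0 instead.

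The ATP synthase, which makes ATP from the proton gradient, had all 5 of its tested genes higher, although under scaling to mitochondrial genes 2 passed above 0 (ATP8 and ATP9) and ATP1 passed below it (-0.21). ATP9 (ATMG01080, TAIR10 mitochondrial genome, 278649 to 279152, plus strand) was at 5.53, 7.19, 6.91, 6.07, 5.01, 8.59 and 4.49 scaled TPM from ZT0 to ZT20 in constant Col-0 and at 15.2, 9.14, 10.1, 16.2, 25.1, 11.7 and 9.24 in oscillating Col-0. In pif7 it was at 6.41, 7.09, 4.29, 3.85, 6.26, 4.15 and 5.38 at constant temperature and at 7.96, 10.3, 10.4, 17.3, 21.5, 12.6 and 6.43 under oscillation. Both oscillating courses were highest at ZT12, at the end of the warm hours, and every oscillating library exceeded its constant partner. The log2 difference was 0.99 ± 0.16 (SE, adjusted p = 0.000701). ATP8 (ATMG00480, 129909 to 130385, plus strand), a subunit of the membrane part of the enzyme, had 1.04 to 2.87 scaled TPM in constant and 2.38 to 7.04 in oscillating libraries. It was higher in 13 of 14 pairs, Col-0 at ZT16 being the exception with 2.38 against 2.43, and differed by 1.00 ± 0.11 (adjusted p = 3.21e-05). ORF25, the gene of the peripheral stalk subunit atp4, differed by 0.69 ± 0.18, ATP6-2 by 0.36 ± 0.09 and ATP1, the alpha subunit of the catalytic head, by 0.33 ± 0.10. For ORF25 the groups overlapped widely, at 0.296 to 2.39 and 0.386 to 6.16 scaled TPM.

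In complex IV, which passes electrons to oxygen, COX2 was the only one of 3 genes that passed, and under scaling to mitochondrial genes it stayed above 0 (0.28) while COX1 (-0.17) and COX3 (-0.11) turned below 0 without passing. COX2 (ATMG00160, 40502 to 42628, minus strand) was at 1.73, 0.965, 1.86, 1.55, 1.47, 1.70 and 2.49 scaled TPM from ZT0 to ZT20 in constant Col-0 and at 4.60, 4.38, 3.42, 2.29, 3.35, 2.69 and 3.16 under oscillation. In pif7 the range was 0.671 to 1.99 at constant temperature and 2.31 to 3.62 under oscillation. All 14 pairs were higher, and the only overlap of the groups came from constant Col-0 at ZT20 (2.49). The difference was 0.75 ± 0.10 (adjusted p = 0.000114). COX1, the largest catalytic subunit, differed by 0.30 ± 0.10 (adjusted p = 0.0504) and COX3 by 0.12 ± 0.07 (adjusted p = 0.297), and neither passed. COB, the cytochrome b of complex III, differed by 0.25 ± 0.10 (adjusted p = 0.111) and did not pass either.

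Complex I genes were split. Of 12 tested rows 5 were higher and none was lower, with a median log2 difference of 0.31. Under scaling to mitochondrial genes the median turned to -0.06, with 1 row (NAD5B, 0.44) higher and 1 (NAD9) lower. NAD4, a proton-pumping membrane subunit, had 0.477 to 1.71 scaled TPM in constant and 0.838 to 2.29 in oscillating libraries, was higher in all 14 pairs and differed by 0.46 ± 0.08 (adjusted p = 0.00173). NAD3 differed by 0.44 ± 0.11 and NAD7, a subunit of the matrix arm, by 0.37 ± 0.09. NAD1 and NAD5 are trans-spliced, and their parts are listed as separate rows. The NAD1 row ATMG00516, which contains the maturase gene MATR, was higher by 0.45 ± 0.10, while the other NAD1 rows differed by 0.06 ± 0.16 and 0.08 ± 0.12 and did not pass. For NAD5 the row NAD5B passed (0.72 ± 0.21) but spans 22 bases, shorter than a read, and the other rows, at 0.25 ± 0.10 and 0.17 ± 0.09, did not. MATR itself, whose span lies within that of the NAD1 row, differed by 0.29 ± 0.08 (adjusted p = 0.0188). Whether these rows share reads was not tested.

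All 6 tested ribosomal protein genes were higher, by similar amounts. RPL2 and RPS7, at most 0.642 and 0.741 scaled TPM in constant libraries, reached the filter only with oscillating libraries. Under scaling to mitochondrial genes 3 of the 6 lay below 0, and of these RPSL2 (-0.25) and ATMG00090 (-0.21) passed. RPSL2 had 13.4 to 22.6 scaled TPM in constant and 18.3 to 30.8 in oscillating libraries, overlapping, but was higher in 14 of 14 pairs (0.41 ± 0.07, adjusted p = 0.0017). RPL16 differed by 0.44 ± 0.08, RPL5 by 0.40 ± 0.10, RPS7 by 0.36 ± 0.09, RPL2 by 0.31 ± 0.08 and ATMG00090, the gene of ribosomal protein S3, by 0.33 ± 0.10. Among the genes of cytochrome c maturation, which attach heme to cytochromes, 2 of 5 could be tested. CCB452 (the ccmFC gene) was low, with 0.220 to 0.654 scaled TPM in constant and 0.861 to 1.55 in oscillating libraries. These ranges did not touch, but CCB452 reached the filter only with oscillating libraries, so the lack of overlap is not read. The difference was 0.64 ± 0.06 (adjusted p = 1.35e-05). CCB382 (ccmFN1) differed by 0.56 ± 0.31 and did not pass. It fell into separate levels. In 7 libraries, 2 of them oscillating, it had 1.13 to 2.37 scaled TPM, and in the other 21 it had 7.90 to 13.8. Its chromosome 2 copy AT2G07783 ranged from 14.5 to 26.8 without such a gap. The mean TPM of CCB382 (8.27) was above its mean coverage (3.09), whereas for CCB452 the TPM (0.783) was below the coverage (1.18). The cause of the separate levels was not tested.

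The large ribosomal RNA was the only tested mitochondrial gene that was lower over all times in the reported fit. Under scaling to mitochondrial genes RRN18 (-0.60) and RRN5 (-0.42) passed as lower too. RRN26 (ATMG00020, 8848 to 11415, minus strand) was at 298, 285, 335, 293, 243, 262 and 237 scaled TPM from ZT0 to ZT20 in constant Col-0 and at 268, 166, 217, 196, 162, 121 and 150 under oscillation. In pif7 it was at 212, 265, 298, 313, 346, 318 and 249 against 221, 175, 190, 187, 115, 115 and 132. All pairs were lower under oscillation except pif7 at ZT0, and the log2 difference was -0.74 ± 0.11 (adjusted p = 0.000377). The small subunit RNA RRN18, at 68.5 to 172 against 66.3 to 193 scaled TPM, did not pass (0.09 ± 0.09), nor did the 5S RNA RRN5 (0.26 ± 0.11). RRN18 and RRN5 lie next to each other on one strand and RRN26 elsewhere in the genome.

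Of 10 tested transfer RNA rows 3 were higher, beside 6.25% of all genes, a count not split by the filter. The same 3 passed under scaling to mitochondrial genes, where 8 of the 10 lay above 0. TRNS.2 had 0.847 to 3.59 scaled TPM in constant and 2.98 to 9.75 in oscillating libraries, was higher in all 14 pairs and differed by 1.04 ± 0.13 (adjusted p = 9.29e-05). TRNS.4 differed by 0.97 ± 0.15 and TRNC by 0.74 ± 0.15. At constant temperature TRNC was at 2.58 scaled TPM in Col-0 at ZT16 and at most 0.669 in the other libraries. It thus reached the filter only with oscillating libraries. TRNM.1, the most abundant by mean TPM, differed by 0.66 ± 0.23 (adjusted p = 0.0699). These rows are short, 88 bases for both TRNS rows, so reads of longer transcripts that run through them may count there.

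Open reading frames of unassigned role supplied 15 of the 37 higher genes, from 20 tested. This count was not split by the filter. The 15 include ORF313, ORF107C, ORF291, ORF315 and ORF141, which reached it only with oscillating libraries. Under scaling to mitochondrial genes 5 frames were higher and 3 lower (ORF161, ORF110A and ORF199). ORF313 (ATMG00590, 169796 to 170737, plus strand) was the most changed of all. It had 0.0509 to 0.643 scaled TPM in constant libraries, with a median of 0.368 in Col-0 and 0.285 in pif7. Under oscillation it had 0.961 to 3.77, with medians of 2.78 and 2.66. The ranges did not touch, and the log2 difference was 1.39 ± 0.10 (adjusted p = 8.62e-07). No function is assigned to it here. The mean TPM of ORF313 (1.48) was above its mean coverage (signal per base, 1.39), whereas for ORF240A the TPM (3.14) was below the coverage (4.74). Whether the coverage of ORF313 changed in the same way was not tested. ORF240A (1.20 to 2.38 against 3.14 to 7.92 scaled TPM) also did not overlap, and differed by 0.94 ± 0.11. ORF262, downstream of ATP9, had 0.667 to 1.79 against 1.69 to 3.48 and differed by 0.78 ± 0.10. ORF161, ORF110A and ORF199 were the tested frames with a negative difference, at -0.14, -0.10 and -0.02, and did not pass.

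ORF313, ORF240A and CCB452 were the mitochondrial genes whose 14 oscillating libraries all lay above all 14 constant ones. They are 4.76% of the 63 tested, beside 0.109% of all genes tested, but ORF313 and CCB452 reached the filter only with oscillating libraries, so the share is not read. Of the 47 genes that reached the filter in the constant libraries alone, 1 showed this, ORF240A. In 11 genes, 17.5% of the tested, the oscillating library was higher in 14 of 14 pairs, beside 0.918% of all genes, and 7 of these 11 are among the 47. Of 46 tested genes of the mitochondrial insertion on chromosome 2, 5 (10.9%) did not overlap and 12 (26.1%) were higher in 14 of 14 pairs. These were not split by the filter, so their shares are not read either. Beside ORF313, ORF240A and CCB452, the mitochondrial genes higher in every pair were ATP9, COX2, NAD4, RPSL2, TRNS.2, ORF315, ORF294 and ORF291.

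**Figure D3:**
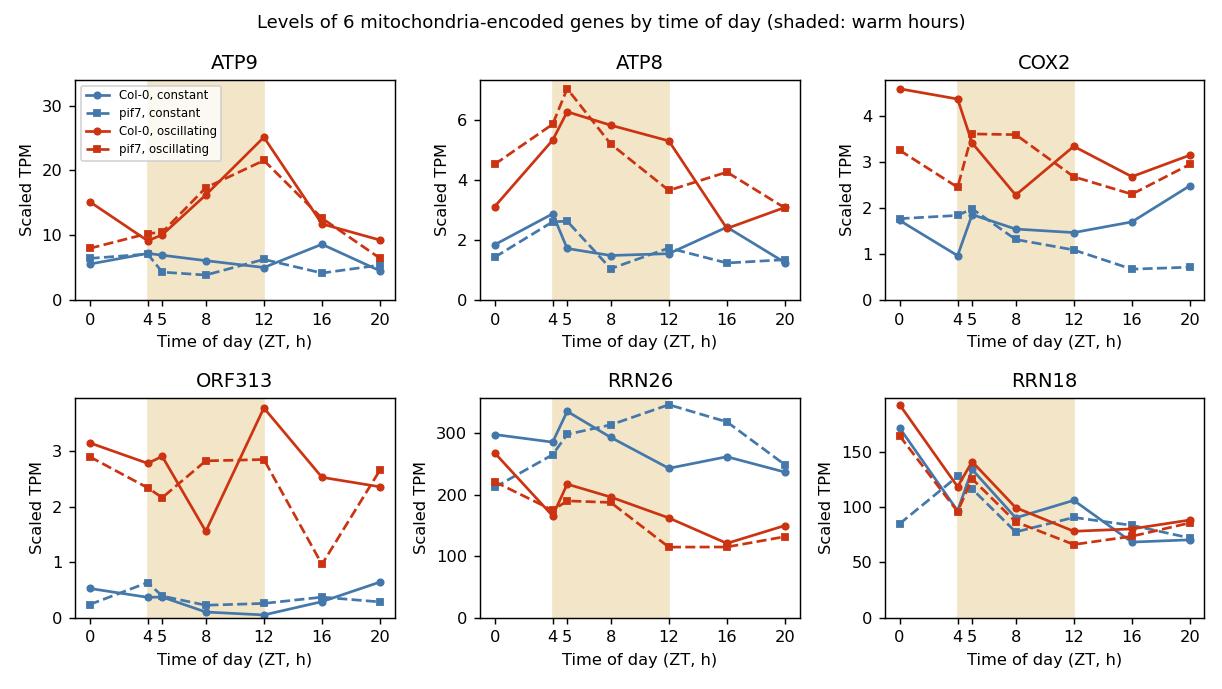
Scaled TPM of 6 genes against time of day, 1 point per library, with blue for constant and red for oscillating temperature, solid lines for Col-0 and dashed lines for pif7. ATP9 peaks at ZT12 under oscillation, ORF313 and COX2 are raised at all times, and RRN26 is lowered at most times. RRN18, averaged over the genotypes, is highest at ZT0 and lowest at ZT12 under oscillation, and its time of day was not called at constant temperature.

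Neighbouring genes on one strand differed by unequal amounts. With a gap of at most 1000 bases, 46 tested genes formed 15 groups. In 5 groups every gene was called and in 0 none was. RPSL2, NAD3, ORF114 and ORF118 differed by 0.41, 0.44, 0.57 and 0.42. ATP8, ORF107C, ORF141 and NAD7 differed by 1.00, 0.41, 0.59 and 0.37, and NAD4 and the ORF313 that begins just after it by 0.46 and 1.39. The stretch of ORF111D, RRN5 and RRN18 held a gene that was higher (0.60 ± 0.09) beside ribosomal RNAs that did not pass (0.26 and 0.09). Among the 146 genes 12 pairs overlap, 5 of them on opposite strands. Overlapping genes can share reads, but whether they did was not tested. Whether the counting used strand is not given in the sources used here, although ORF131, which lies wholly opposite ORF315, was listed at 0 in every library.

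Nuclear copies limit where the RNA can be placed. Of the mitochondrial genes, 31 could be matched by name to RefSeq, and 19 of them had a copy on chromosome 2 that covered at least 95% of the gene at 99% identity or more. In 13 the copy was identical over the whole length. Of the 14 tested genes with such a copy 11 were higher (median 0.38), and of the 11 tested genes matched without one 5 were higher and 1 was lower (median 0.33). Of the 5 higher genes without a full copy, NAD4 had a best match over 87.2% of its length at 99.9% identity. The best match of RPL16 was identical over 40.6% of the gene and that of ATMG00090 over 5.10%. COX2 had one over 14.4% at 96.4% identity, and ORF25 had none in the stretch searched. Part copies can also share reads, and these counts were not split by the filter. Most copies gave values near those of the mitochondrial gene. ATP8 differed by 1.00 and its copy AT2G07707 by 0.94, ATP9 by 0.99 and AT2G07671 by 1.15, RPSL2 by 0.41 and AT2G07675 by 0.42, and NAD3 by 0.44 and AT2G07751 by 0.43. CCB452 and RPL2 were unlike their copies, at 0.64 against 0.13 for AT2G07723 and at 0.31 against -0.27 for AT2G07715. CCB382 differed by 0.56 and its copy AT2G07783 by 0.05, and neither passed. Of the 126 genes of the insertion 46 were tested and 24 were higher over all times, beside 6.25% of all genes. This count was not split by the filter. The summed TPM of the insertion's genes was higher under oscillation in 14 of 14 pairs, with a median ratio of 1.54. For genes with identical copies the mitochondrial and nuclear origin of the reads cannot be told apart.

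**Figure D4:**
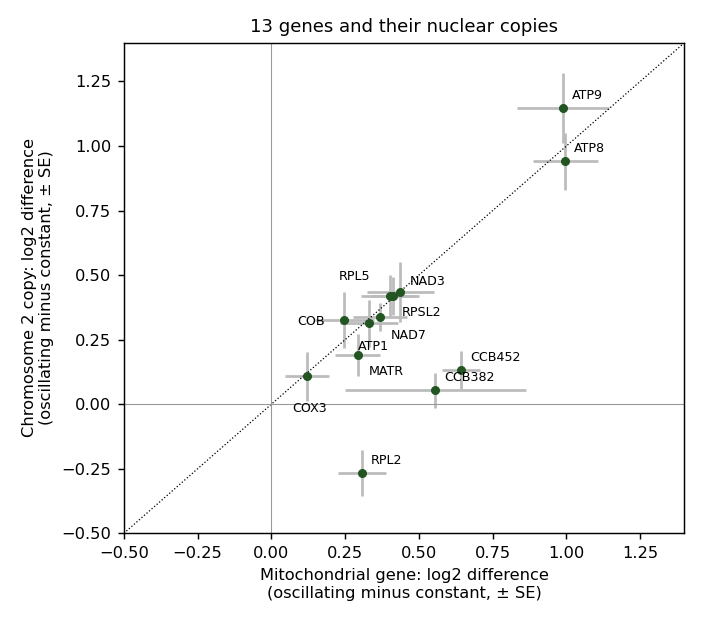
Log2 difference (oscillating minus constant, with standard errors) of 13 mitochondrial genes on the horizontal axis against that of their copy on chromosome 2 on the vertical axis; the dotted line marks equal values. ATP8, ATP9, RPSL2 and NAD3 lie near the line, while CCB452 (0.64 against 0.13), CCB382 (0.56 against 0.05) and RPL2 (0.31 against -0.27) lie below it.

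Mitochondrial genes were higher both during and outside the warm hours. In the warm window (ZT5, ZT8 and ZT12, 6 pairs) 23 of the 63 genes were higher and 1 was lower, where 10.3% of all genes were higher and 9.09% lower. Outside it (ZT0, ZT4, ZT16 and ZT20, 8 pairs) 18 were higher and 1 was lower, where 2.60% and 2.72% of all genes were. Of these 63 genes, 47 reached the filter in the constant libraries alone. Among those, 17 were higher and 1 lower in the window, and 13 and 1 outside it. The median log2 differences were 0.36 and 0.37 over the tested mitochondrial genes, against -0.01 and 0.01 over all genes. Scaled to mitochondrial genes, the splits were 9 higher and 8 lower in the window and 11 and 10 outside it. By single time the median was 0.59 at ZT0, with 59 of 63 genes above 0, and between 0.33 (ZT20) and 0.42 (ZT8) at the other times. The counts fell to 12 in the window without ZT8 and to 13 without ZT12, and to 12 outside it without ZT16 or without ZT20.

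In the window the largest differences were those of ORF313 (1.56 ± 0.16), ATP9 (1.43 ± 0.21), ATP8 (1.28 ± 0.13) and ORF240A (1.21 ± 0.15), each higher in 6 of 6 pairs. Outside it ORF313 differed by 1.26 ± 0.14, ATP8 by 0.78 ± 0.11, ORF240A by 0.74 ± 0.13 and ATP9 by 0.66 ± 0.18. RRN26 was lower by -0.79 ± 0.17 in the window and by -0.70 ± 0.15 outside it. A test of the window effect minus the effect outside it called 1 mitochondrial gene of 63, TRNG (-1.08, adjusted p = 0.0398), where 5.27% of all genes were positive and 4.52% negative. TRNG is a 74-base row with levels of 0 to 3.03 scaled TPM, and this call was lost without any one of ZT0, ZT4, ZT8, ZT12 or ZT20. The larger window values of ATP9 (difference 0.76, adjusted p = 0.0905), ATP8 (0.51, adjusted p = 0.0773) and NAD3 (0.58, adjusted p = 0.0669) did not pass.

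Time of day was called for few mitochondrial genes. At constant temperature 1 of 63 passed, against 30.6% of all genes, and that gene, TRNK.1, was at 11.6 scaled TPM in Col-0 and 3.37 in pif7 at ZT4 and at 0.284 or less in the constant libraries of all other times. Without ZT4 none passed. The mean coverage of TRNK.1 over the 28 libraries was 0.276, beside a mean TPM of 0.896, so little signal stands behind these levels. Under oscillation, where time and temperature move together, 18 of 63 passed, against 65.7% of all genes. All 3 ribosomal RNA genes were among them. RRN18 was highest at ZT0 and lowest at ZT12, 1.30 apart on the log2 scale (adjusted p = 4.5e-06), and RRN26 was highest at ZT0 and lowest at ZT16, 1.04 apart (adjusted p = 0.000265). ATP9 ran from a low at ZT20 to a high at ZT12, 1.48 apart (adjusted p = 0.00193). ORF240A also peaked at ZT12 (0.98, adjusted p = 0.00218), with 7.92 and 7.19 scaled TPM in Col-0 and pif7, and ATP8 peaked at ZT5 (0.91, adjusted p = 0.0204). ORF25 had the widest range, from ZT8 to ZT0 (1.84, adjusted p = 0.0257).

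PIF7, a transcription factor of warmth and shade signalling, is the gene affected in the mutant, and its own transcript served as the check of the labels. It had 1.78 to 13.9 scaled TPM in pif7 (median 6.70) and 7.47 to 40.5 in Col-0 (median 14.9). Between the genotypes 1 of 63 mitochondrial genes passed, the 5S ribosomal RNA RRN5, where 0.266% of all genes were higher and 0.0951% lower in pif7. RRN5 had 16.8 to 42.1 scaled TPM in constant Col-0 and 28.6 to 61.0 in constant pif7, and 20.0 to 59.3 against 36.1 to 62.5 under oscillation. The ranges overlapped, and the difference was 0.51 ± 0.11 (adjusted p = 0.0495). It no longer passed without any one of ZT0, ZT4, ZT5, ZT8, ZT12 or ZT20. The sum outside ribosomal RNA was higher in pif7 in 5 of 14 pairs, with a median ratio of 0.975. The difference between the genotypes in the window effect was not called for any mitochondrial gene or any other (limma, 0 of 63 and 0.0% of all genes); 2 of the 63 had an unadjusted p under 0.05.

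Nuclear genes for the same machinery were also read. Of 43 tested nuclear genes of complexes I to IV and the ATP synthase 1 was higher and 1 lower over all times, beside 6.25% and 6.48% of all genes, with a median of -0.11. Counts this small are not set apart from that background. The lower one was SDH1-2, a flavoprotein subunit of complex II (-0.34 ± 0.07, adjusted p = 0.00436). The higher one was AT5G25450, a gene of the complex III list, which went from a median of 0.623 scaled TPM to 2.32 (1.64 ± 0.34, adjusted p = 0.00586). ATP3, the gamma subunit of the ATP synthase, was at a median of 253 against 223 scaled TPM and differed by -0.14 ± 0.05 (adjusted p = 0.0598). In the warm window 1 of the 43 was higher and 3 were lower, SDH1-1 (-0.44 ± 0.14) and AT3G15640 of the complex IV list (-0.35 ± 0.11) beside SDH1-2, where 10.3% of all genes were higher and 9.09% lower. Outside it 0 passed in limma, with 9 at an unadjusted p under 0.05, where 2.60% of all genes were higher and 2.72% lower. Of 7 tested genes of alternative oxidases and dehydrogenases 2 were lower in the window and 1 over all times. The alternative dehydrogenase gene NDC1 was lower over all times (-0.21 ± 0.05, adjusted p = 0.0165) and in the window (-0.30 ± 0.08, adjusted p = 0.0204). The external dehydrogenase gene NDB2 was lower in the window in 6 of 6 pairs (-0.77 ± 0.20, adjusted p = 0.0151), and AOX1A, the main alternative oxidase, did not pass in the window (-0.37 ± 0.17, adjusted p = 0.152).

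Of 17 nuclear genes for synthesis and processing of mitochondrial RNA 16 had a difference above 0 over all times, with a median of 0.15, beside 10749 of all 21031 genes above 0. Of the 17, 1 passed, a share near the 6.25% of all genes that were higher. It was AT5G46920, a maturase-related gene, which was higher in 13 of 14 pairs (0.38 ± 0.09, adjusted p = 0.00863). In the window AT1G72530, an editing factor gene, was higher in 6 of 6 pairs (0.70 ± 0.12, adjusted p = 0.0017). The splicing factor nMAT1 differed by 0.24 ± 0.10 (adjusted p = 0.113) and the RNA helicase gene PMH2 by 0.22 ± 0.10 (adjusted p = 0.151) over all times, and neither passed.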

How the data were processed

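RNA sequencing of 28 libraries was used. The submitters' processing notes name HISAT2 for alignment, StringTie for quantification and the TAIR10 build; versions, strand and multi-mapping settings are not given in the sources used here. Per the file headers the deposited tables hold a coverage (signal per base), FPKM and TPM for each gene. The deposited TPM of assembled loci sums to 1000000 per library and that of reference rows to between 1010427 and 1034801, and it was treated as a unit of its own. Depth was derived from coverage over FPKM; no read counts entered, and intervals of counting error are not given.

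TPM was divided by median-ratio factors over the tested genes (scaled TPM), and log2(scaled TPM + 1) was fitted with limma 3.58.1 (R 4.3.3, variance trend). The pseudocount understates the change of low genes. The filter of 1 TPM in 2 libraries left 21031 of 33602 genes, over which p was adjusted (Benjamini-Hochberg, threshold 0.05). Regime fits carried genotype-by-time terms, the genotype fit regime-by-time terms and the time fits a genotype term. Since each condition has 1 library, p reflects constancy across times and genotypes, and variation between seedling pools is not measured. Errors are the fit's standard errors. The fits were tested on simulated data.

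Sequences are those of RefSeq for TAIR10.1, whose mitochondrial genome (367808 bases) is not the one in the files, so gene coordinates are those of the files and only printed sequences carry RefSeq ones; on chromosome 2, 5437 of 5438 genes lay at nearly the same place in both. Copies were searched with BLASTN 2.17.0 in a stretch of chromosome 2 around the insertion, and only the best match of each gene was kept. RefSeq names were matched by symbol or synonym, and by hand for RPSL2, ORF25 and ATMG00090.

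Members, gene lists and the naming rule were chosen with earlier results of these data known. The rule covers every gene of the functional lists, up to 10 genes per direction and comparison, the 10 of highest mean TPM and up to 4 per nuclear list. The fit over all times, the test of the window against other times and the split by filter were chosen after the data were seen. Plots and tables and plots used pandas 2.3.3, numpy 2.4.6 and matplotlib 3.10.9 under Python 3.11.15.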

Additional observations from a re-analysis of the deposited data

Results flagged for a closer look

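TRNG, a transfer RNA row of 74 bases, was the only mitochondrial gene whose regime difference in the warm window differed from that at the other times by a test of the difference itself (log2 difference of differences -1.08, limma adjusted p = 0.0398). Its scaled TPM under oscillation was 1.05, 0.748, 0, 0, 0.104, 1.07 and 1.22 from ZT0 to ZT20 in Col-0 and 1.43, 3.03, 0.926, 0, 0.189, 0 and 1.14 in pif7, so it was at 0.189 or less in both genotypes at ZT8 and ZT12. At constant temperature it was at 1.02, 0, 1.16, 0, 0.561, 0.179 and 0.495 in Col-0 and at 0.217, 0.328, 1.27, 0.680, 0.468, 0.562 and 0.398 in pif7. These levels lie near the lowest that were tested, and the call was lost when any one of ZT0, ZT4, ZT8, ZT12 or ZT20 was left out.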

How the results depend on the processing

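Regime calls were mostly higher in every alternative but scaling to mitochondrial genes, which gave 23 calls over all times (13 higher and 10 lower). The differences chosen by the rule for largest changes kept their sign in the alternatives run, but under that scaling 23 of the 63 genes changed sign over all times, 7 of them called as higher in the reported fit and 3 of these (ATP1, RPSL2 and ATMG00090) then called as lower. With unscaled TPM 1 uncalled gene changed sign. With pseudocount 0.1, no filter, unscaled TPM, no variance trend or only the libraries of the comparison, the calls were 18 to 32 in the warm window and 17 to 25 outside it, with 1 lower gene each. Leaving out 1 time gave 12 to 25 calls in the window, 12 to 20 outside it, 26 to 37 over all times, 0 to 5 for the window effect minus the effect outside it (5 without ZT5), 0 to 1 for genotype, 0 for the genotype difference of the window effect, 0 to 2 for time of day at constant temperature and 14 to 23 under oscillation. The single call of the window difference became 0 with pseudocount 0.1, with no filter and with scaling to mitochondrial genes. The single genotype call became 0 with pseudocount 0.1, with no filter and with no variance trend. Time of day at constant temperature had 2 calls with no filter and 2 with no variance trend. The cause was not tested. Of the values of named genes under all alternatives 713 kept their side of the threshold, 66 lost the call and 4 gained one. For genotype, fitting only the libraries of the comparison is the fit as reported, since it uses all 28, so it was not run. The regime fits already set libraries of the same genotype and time against each other. No paired analysis was possible because beyond that pairing each condition has 1 library and no replicate numbers to block on.

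Depth cannot resolve the 83 genes below the filter one by one, and without replicates the spread between pools of seedlings is unknown.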
